A study of Homo sapiens with 8 samples.

Results

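The genes described here are those of the G1 cyclins, their kinases and the retinoblastoma protein: CCND1, CCND2, CCND3, CCNE1, CCNE2, CDK2, CDK4, CDK6 and RB1. They were chosen by gene name, and all 9 were found among the 16295 genes of the expression table and were tested. The 8 RNA-seq libraries come from MM1.S, a line of malignant human plasma cells established from a multiple myeloma. Its cells were kept for 24 h with 0.5 µM of MS177, 0.5 µM of MS177N1, 0.5 µM of C24 or the solvent DMSO, with 2 libraries in each group. As background, C24 inhibits the histone methyltransferase EZH2, MS177 links C24 to a ligand of the ubiquitin ligase receptor CRBN so that EZH2 is degraded, and MS177N1 is the matching compound without degrader activity. The labels do not say whether the 2 libraries of a group came from separate cultures, so the p-values cover the spread among these libraries alone, and that spread may be technical.

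In the G1 phase, D-type cyclins bind CDK4 or CDK6 and start the phosphorylation of the retinoblastoma protein, which RB1 encodes. E-type cyclins with CDK2 then complete that phosphorylation, and E2F transcription factors freed from the protein switch on the genes of DNA replication. In multiple myeloma, raised expression of 1 or another D cyclin gene is a common feature, and CCND2 is the one known to be high where the MAF oncogene is activated, as in MM1.S.

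The libraries held between 20000665 and 26619099 reads in the genes of the table. Levels are normalized reads, that is reads divided by a size factor per library. Changes are given on the log2 scale from a limma fit, with a standard error (SE) and a p adjusted over all 14164 genes tested. The cell line was checked against 10 plasma-cell markers, all of which were listed. Their summed level was 127298 to 129600 normalized reads with MS177, 204617 to 206651 with MS177N1, 206793 to 208150 with C24 and 203233 to 203290 with DMSO. IGJ, the largest part with DMSO, had 34601 and 34216 with MS177 against 80811 and 79845 with DMSO. XBP1 was higher with MS177 (34814 and 33576) than with DMSO (31974 and 31433), and CD38 overlapped between these groups. The other plasma-cell markers were lower with MS177 than with DMSO. None of the 4 B cell markers was matched in the table. Of the monocyte and granulocyte markers, 3 of 5 were matched, and their summed level was 1485 to 1595 normalized reads with MS177, 296 to 324 with MS177N1, 337 to 341 with C24 and 289 to 367 with DMSO. Nearly all of that sum was CD68, a lysosomal glycoprotein, while CSF1R and CD14 lay between 0 and 10.3 in every library. The 1 matched T and NK cell marker of 4, CD3E, lay between 29.9 and 79.7, and the 5 stromal and epithelial markers summed to at most 107 in any library. The part of other cell types in the results was not tested. In RNA from a whole culture, fewer cells in a phase of the cycle and less RNA per cell cannot be told apart.

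Promoter letters are shown for CCNE1, the E cyclin gene with the clearest fall described below, and for CDK4, whose promoter held the most matches to a searched motif. They were read on the strand of the gene from RefSeq promoters on GRCh38.p14, and capitals mark matches. For CCNE1 the stretch is chr19:29811741-29811897 on the plus strand, which ends just before the first start that GENCODE v29 annotates. For CDK4 they are 2 stretches of 30 bases on the minus strand, chr12:57752499-57752528 with 2 matches and chr12:57752394-57752423 with 1.
CCNE1: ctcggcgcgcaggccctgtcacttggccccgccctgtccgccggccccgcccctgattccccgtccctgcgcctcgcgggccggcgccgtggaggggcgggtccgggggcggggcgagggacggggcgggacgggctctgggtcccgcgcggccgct
CDK4, first stretch: gtCACGTGtgatagcaacagatCACGTGgc
CDK4, second stretch: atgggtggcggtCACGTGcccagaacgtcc

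In all, 3 motifs were searched on both strands, in windows from 250 bases before to 50 after the RefSeq start of CCND3, CCNE1, CDK4 and CDK6. They were the E-box CACGTG, to which MYC and related factors can bind, the E2F motif (TTTCCCGC, TTTCGCGC, TTTGCCGC or TTTGGCGC) and the CHR motif (TTTGAA or TTCGAA), and no 2 matches in these windows overlapped. The CDK4 window held 3 E-boxes, the capitals above, which begin 216, 196 and 101 bases before the start. CDK4 exons in GENCODE v29 begin upstream of that start and cover part of the window. At least 1 E-box was found in 7.43% of all 27305 promoters in the reference table, the E2F motif in 3.33% and the CHR motif in 16.6%. In the 9763 promoters of tested genes, the shares were 10.4%, 5.43% and 11.2%. The share of promoters with 3 E-boxes, as in CDK4, was not computed. No motif was found in the CCNE1 or CCND3 window, and the CDK6 window held 1 E-box, which begins 31 bases after the start. The absence of a match says only that these letters are not in the window. Promoter entries for CCND1, CCND2, CCNE2 and CDK2 were not found. The RB1 window held no match, but it lies inside the gene, far from the annotated start, and was not used.

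With MS177, 6 of the 9 genes fell against DMSO and 1, RB1, rose. Over all genes tested, limma called 29.0% lower and 28.9% higher in the same comparison (57.9% in all), with a median log2 fold change of 0.00, against a median of -0.27 over the 9 genes. The falls ranged from a 1.16-fold fall of CCND2, the D cyclin gene with the highest level per kilobase of exon, to a 5.66-fold fall of CCND1, the one with the lowest. CCNE1 fell 2.38-fold and RB1 rose 1.73-fold. CCNE2 and CDK6 were not called. The MS177 and DMSO libraries did not overlap for 7 of the 9 genes, against 75.8% of all genes tested, so that count is near the share over all genes.

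**Figure D1:**
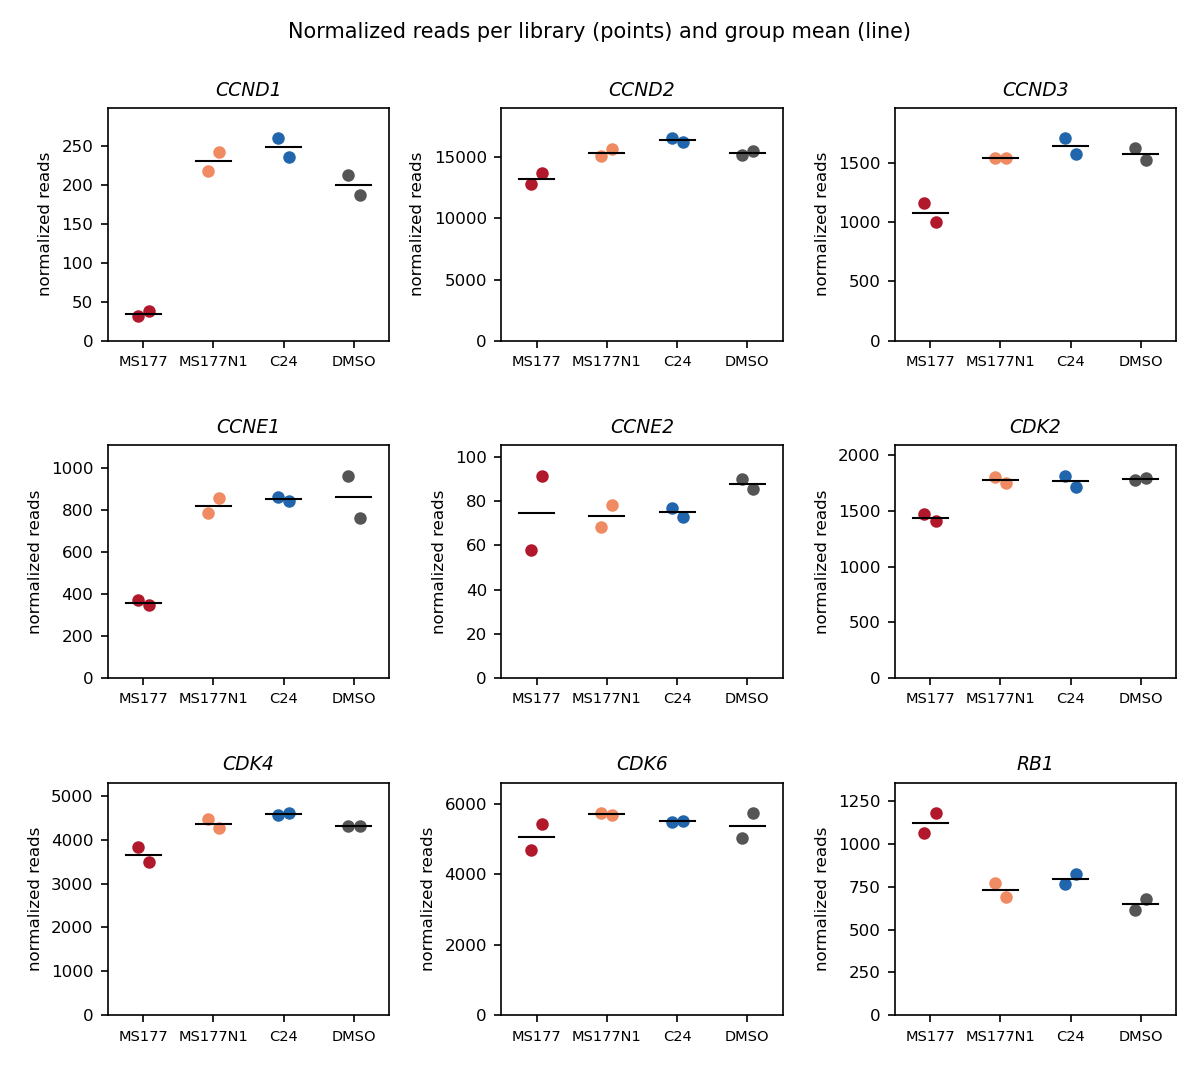
Normalized reads (vertical axis, from 0) of each gene in each library (points) of the MS177, MS177N1, C24 and DMSO groups, with a line at the mean of the 2 libraries. The MS177 libraries lie below all 6 others for CCND1, CCND2, CCND3, CCNE1, CDK2 and CDK4 and above all 6 others for RB1. Over all genes tested, MS177 libraries did not overlap those of DMSO for 75.8%, of MS177N1 for 77.9% and of C24 for 78.3%. Each share is for MS177 and a single other group. The share set apart from all 6 other libraries was not computed.

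CCND1 encodes cyclin D1, the D cyclin driven by translocation in another group of myelomas; it lies on chromosome 11 (69641087 to 69654474, plus strand, GRCh38 in GENCODE v29). Its level was 31.1 and 38.3 normalized reads with MS177, 218 and 243 with MS177N1, 260 and 237 with C24, and 214 and 187 with DMSO. Both MS177 libraries lay far below the other 6, on only 29 and 41 reads. The log2 fold change against DMSO was -2.50 (SE 0.17, limma adjusted p = 4.85e-09), a 5.66-fold fall.

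LTO1, listed in the table as ORAOV1, lies on the opposite strand and shares 497 exon bases with CCND1. It had 373 to 458 normalized reads with MS177 and 270 to 325 with DMSO, so it was higher where CCND1 was lower (log2 fold change 0.48, SE 0.15, limma adjusted p = 0.0146). The counting is not stated to use strand, so reads from the shared bases cannot be told apart.

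CCND2 encodes cyclin D2 (chromosome 12, 4273772 to 4305350, plus strand, GRCh38). It had 12825 and 13705 normalized reads with MS177, 15078 and 15662 with MS177N1, 16553 and 16246 with C24, and 15169 and 15556 with DMSO. The MS177 libraries were the lowest of the 8, but by a small margin. An annotated transcript on the same strand shares 989 exon bases with CCND2 and was not matched in the table. The log2 fold change against DMSO was -0.21 (SE 0.04, limma adjusted p = 0.000566), and it was -0.13 (adjusted p = 0.0202) when libraries were scaled by total reads. In a fit of the MS177 and DMSO groups alone, the limma adjusted p was 0.0106.

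CCND3 encodes cyclin D3, which is important in normal germinal-centre B cells (chromosome 6, 41934933 to 42050357, minus strand, GRCh38). Its level was 1156 and 1002 normalized reads with MS177, 1541 and 1538 with MS177N1, 1705 and 1571 with C24, and 1625 and 1524 with DMSO. Both MS177 libraries lay below the other 6, and the MS177N1 and C24 libraries each overlapped those of DMSO. The fall against DMSO was 1.46-fold (log2 fold change -0.55, SE 0.08, limma adjusted p = 1.40e-05).

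Per kilobase of annotated exon, cyclin D2 made up most of the D cyclin signal in every library. CCND2 held 86.8% and 88.9% of the per-kilobase sum of the 3 D cyclin genes with MS177 and 83.6% and 84.8% with DMSO. CCND3 held 12.9% and 10.7% with MS177 and 14.7% and 13.7% with DMSO. CCND1 held 0.309% and 0.366% with MS177 and 1.73% and 1.50% with DMSO. The gene with the greatest fold fall of the 9 therefore supplied the smallest share of the D cyclin signal. The sum of the 3 genes was 2280 and 2378 normalized reads per kilobase with MS177, 2767 and 2862 with MS177N1, 3046 and 2959 with C24, and 2801 and 2830 with DMSO. These shares rest on exon lengths from GENCODE v29, which may differ from the annotation of the authors.

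CCNE1 encodes cyclin E1 (chromosome 19, 29811898 to 29824308, plus strand, GRCh38), which activates CDK2 and is itself an E2F target. It had 372 and 345 normalized reads with MS177, 785 and 856 with MS177N1, 862 and 842 with C24, and 963 and 759 with DMSO. The 2 DMSO libraries differed more from each other than those of any other group, yet both were above both MS177 libraries. The log2 fold change against DMSO was -1.25 (SE 0.10, limma adjusted p = 4.45e-08).

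CCNE2, on chromosome 8, encodes cyclin E2, which has the same partner kinase. It was the scarcer E cyclin, with 57.9 and 91.7 normalized reads under MS177, 68.2 and 78.2 under MS177N1, 77.0 and 73.0 under C24, and 90.3 and 85.6 under DMSO. The MS177 libraries spanned the values of all the others. No change was called (log2 fold change -0.27, SE 0.24, 95% interval -0.77 to 0.24, limma adjusted p = 0.357), and a fall as large as that of CCND3 lies within the interval. INTS8, a subunit of the Integrator complex on the opposite strand, shares 1629 exon bases with CCNE2 and had 525 to 655 normalized reads with MS177 and 619 to 759 with DMSO, so the level of CCNE2 is uncertain.

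Within each library, the log2 ratio of CCNE1 to CCNE2 reads was 2.68 and 1.91 with MS177, 3.52 and 3.45 with MS177N1, 3.48 and 3.53 with C24, and 3.42 and 3.15 with DMSO. Such a ratio does not depend on how libraries are scaled. It was lower in both MS177 libraries than in any other, and the spread between the MS177 libraries came mainly from CCNE2.

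CDK4 encodes the main partner kinase of the D cyclins (chromosome 12, 57747727 to 57756013, minus strand, GRCh38); its promoter holds the 3 E-boxes printed above. The level was 3825 and 3484 normalized reads with MS177, 4473 and 4268 with MS177N1, 4557 and 4612 with C24, and 4314 and 4305 with DMSO. Both MS177 libraries lay below the other 6, and the MS177N1 and DMSO libraries overlapped. The fall was small (log2 fold change -0.24, SE 0.05, limma adjusted p = 0.00117; -0.15, adjusted p = 0.0217, when scaled by total reads). In a fit of the MS177 and DMSO groups alone, the limma adjusted p was 0.0146. TSPAN31, a tetraspanin gene on the opposite strand, shares 1078 exon bases with CDK4 and rose with MS177, with 833 to 874 normalized reads against 541 to 598 with DMSO (log2 fold change 0.58, SE 0.10, limma adjusted p = 8.89e-05), so reads of the 2 genes cannot be fully told apart.

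CDK6 encodes the other D cyclin kinase (chromosome 7, 92604921 to 92836594, minus strand, GRCh38). Its level was 4690 and 5425 normalized reads with MS177, 5730 and 5675 with MS177N1, 5495 and 5514 with C24, and 5019 and 5741 with DMSO. The MS177 and DMSO libraries overlapped. No change was called against DMSO (log2 fold change -0.09, SE 0.07, 95% interval -0.24 to 0.06, limma adjusted p = 0.294). Without MS177 replicate 2 the value was -0.19 and was called (adjusted p = 0.0121), and without MS177 replicate 1 it was 0.02.

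CDK2 encodes the kinase of the E cyclins (chromosome 12, 55966769 to 55972784, plus strand, GRCh38). It had 1469 and 1411 normalized reads with MS177, 1804 and 1755 with MS177N1, 1818 and 1716 with C24, and 1776 and 1799 with DMSO. Both MS177 libraries lay below the other 6, which were close together. The fall against DMSO was 1.24-fold (log2 fold change -0.31, SE 0.06, limma adjusted p = 0.000375). An annotated gene on the opposite strand shares 287 exon bases with CDK2 and was not matched in the table.

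RB1 encodes the pocket protein on which these kinases act (chromosome 13, 48303726 to 48599436, plus strand, GRCh38). Its level was 1062 and 1181 normalized reads with MS177, 772 and 691 with MS177N1, 765 and 824 with C24, and 614 and 681 with DMSO. RB1 was highest in the MS177 libraries and lowest in the DMSO libraries, with both other compounds between. Against DMSO it rose 1.73-fold with MS177 (log2 fold change 0.79, SE 0.09, limma adjusted p = 1.49e-06).

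The balance of cyclin and kinase transcripts to RB1 transcripts followed from these values. The log2 ratio of CCND2 to RB1 reads was 3.59 and 3.54 with MS177, 4.29 and 4.50 with MS177N1, 4.44 and 4.30 with C24, and 4.63 and 4.51 with DMSO. For CDK4 to RB1 it was 1.85 and 1.56 with MS177, 2.53 and 2.63 with MS177N1, 2.57 and 2.48 with C24, and 2.81 and 2.66 with DMSO. Both ratios were lower in the MS177 libraries, by 1.01 for CCND2 and by 1.03 for CDK4 in group means against DMSO (log2 differences of -1.01 and -1.03).

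**Figure D2:**
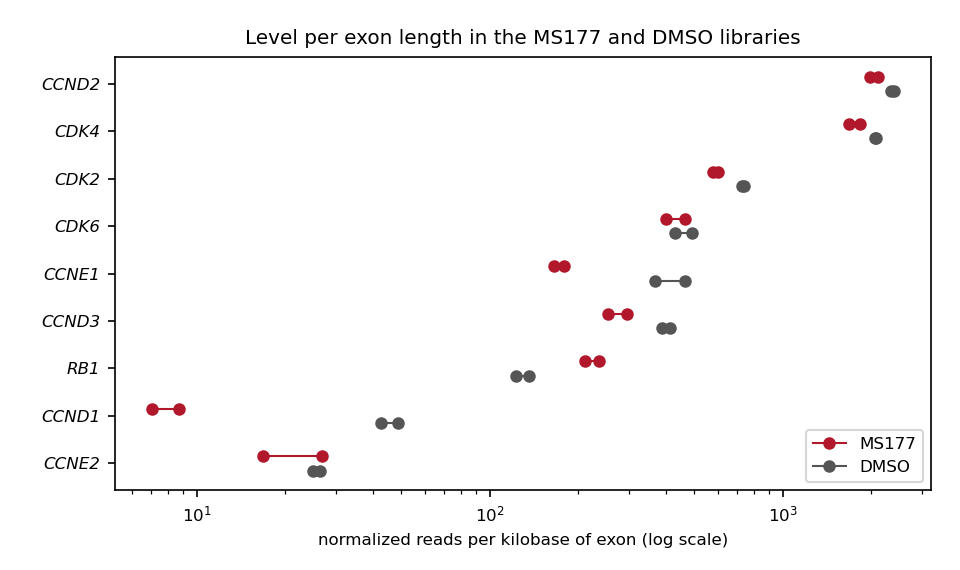
Normalized reads per kilobase of exon (horizontal axis, log scale) of each gene in the 2 MS177 and the 2 DMSO libraries, with a line joining the libraries of a group and genes ordered by their DMSO mean. CCND2 and CDK4 lie above all other genes in both groups, and CCND1 lies at 7.05 and 8.70 with MS177 against 48.5 and 42.6 with DMSO.

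Ordered by level per kilobase with DMSO, the genes ran CCND2 (2371 ± 42.3, SD, n = 2), CDK4 (2076 ± 3.19), CDK2 (733 ± 6.48), CDK6 (459 ± 43.6), CCNE1 (414 ± 69.3), CCND3 (399 ± 18.1), RB1 (129 ± 9.38), CCND1 (45.5 ± 4.18) and CCNE2 (25.6 ± 0.966). The libraries of CCNE1 overlapped those of its neighbours CDK6 and CCND3, so neither of these pairs differed beyond its spread. With MS177 the order at the top was the same, from CCND2 (2047 ± 96.0) through CDK4 (1760 ± 116) and CDK2 (590 ± 16.8) to CDK6 (431 ± 44.3). Below them CCND3 (274 ± 27.7) and RB1 (224 ± 16.8) stood above CCNE1 (173 ± 9.10), and CCND1 (7.88 ± 1.17) stood below CCNE2 (21.8 ± 6.96). With DMSO, CCNE1 had stood above RB1 and CCND1 above CCNE2, and in each of these pairs the libraries of the genes were separate in both groups. CCNE1 and CCND3 also changed places, but their DMSO libraries overlapped. The order rests on GENCODE v29 exon lengths. Exon bases that CCNE2 shares with INTS8 and CCND1 with LTO1 were not set aside. Separate libraries therefore do not settle the order of CCND1 and CCNE2.

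MS177N1 and C24 serve to ask whether the response also follows a matched compound without degrader activity, or the inhibitor itself, at the same dose and time. None of the 9 genes was called with MS177N1 against DMSO, where limma called 0.0353% of all genes. None had an unadjusted p under 0.05 either, as 718 of the 14164 genes tested did. The log2 fold changes lay between -0.26 and 0.20, and all 95% intervals lay between -0.77 and 0.56, both outer bounds belonging to the scarce genes CCNE2 and CCND1. For CCND1 the interval ran from -0.16 to 0.56 and for CCNE1 from -0.28 to 0.16, so falls of the size seen with MS177 lay outside both.

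With C24 against DMSO, limma called none of the 9 genes, where it called 0.0212% of all genes higher and 0.0706% lower (0.0918% in all). An unadjusted p under 0.05 was found for 762 of the 14164 genes tested and for 2 of the 9. One was RB1, at a log2 fold change of 0.30 (SE 0.09, 95% interval 0.11 to 0.49, limma adjusted p = 0.663). It was called only when the adjustment ran over all 6 comparisons together (adjusted p = 0.0192). Under that adjustment 211 genes in all were called in this comparison, against 13 in the main fit. Both C24 libraries, at 765 and 824 normalized reads, lay above both DMSO libraries, at 614 and 681, and 35.4% of all genes tested likewise did not overlap between these groups. The other was CCND2, at 0.09 (SE 0.04, limma adjusted p = 0.908). For CCNE1 the interval ran from -0.23 to 0.21.

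**Figure D3:**
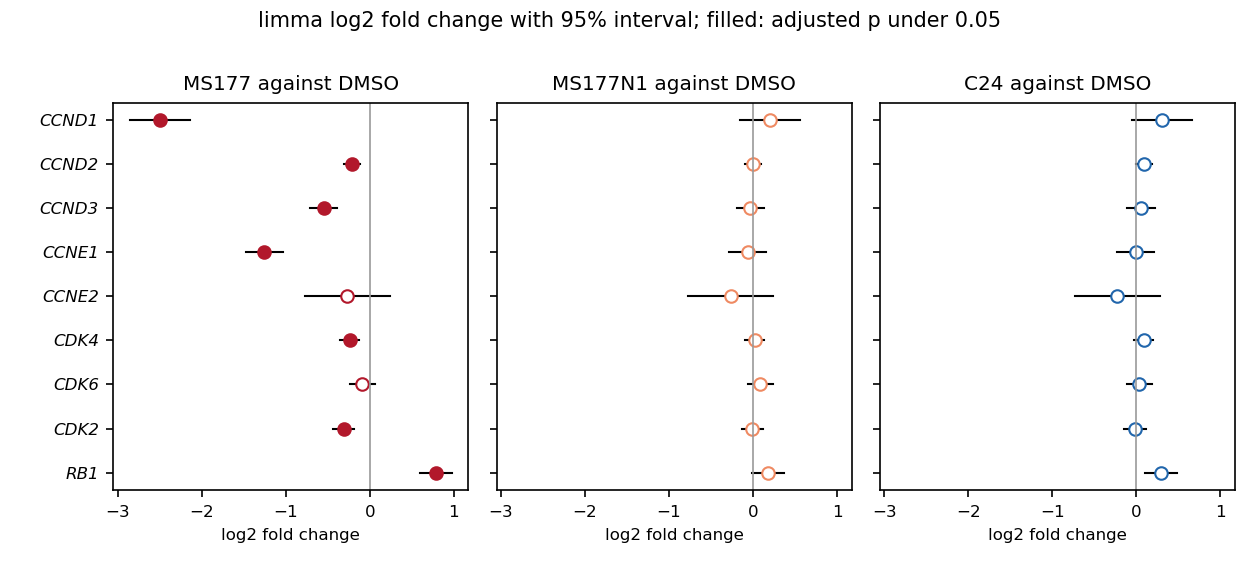
limma log2 fold change of each gene against DMSO (horizontal axis) with its 95% interval (line) for MS177, MS177N1 and C24, where filled points have an adjusted p under 0.05. For MS177, 6 filled points lie to the left of 0 and that of RB1 to the right, while all points for MS177N1 and C24 are open and lie between -0.26 and 0.31.

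The 3 compounds were also compared with each other, in 3 pairs at 0.5 µM and 24 h. Against MS177N1, MS177 gave 7 lower genes and 1 higher gene of the 9, where 28.6% of all genes were called lower and 28.8% higher (57.4% in all). CCND1 differed by -2.70 (SE 0.17, limma adjusted p = 2.14e-09), CCNE1 by -1.19 (SE 0.10, adjusted p = 8.24e-08), and RB1 by 0.62 (SE 0.09, adjusted p = 2.26e-05). CCND3, CDK2, CDK4 and CCND2 differed by -0.52, -0.31, -0.26 and -0.21. CDK6 differed by -0.18 (SE 0.07, limma adjusted p = 0.0444). That call was lost when libraries were scaled by total reads (-0.10, adjusted p = 0.246), without the trend and robust options (adjusted p = 0.189) and when the adjustment ran over all 6 comparisons together (adjusted p = 0.0845). It was also lost without MS177 replicate 1 (-0.07, adjusted p = 0.344) and without either MS177N1 or either C24 library. For CCNE2 the interval of the difference ran from -0.51 to 0.50.

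Against C24, MS177 gave 6 lower genes and 1 higher gene, where 29.0% of all genes were called lower and 29.1% higher (58.1% in all). CCND1 differed by -2.81 (SE 0.17, limma adjusted p = 1.32e-09), CCNE1 by -1.25 (SE 0.10, adjusted p = 4.78e-08) and RB1 by 0.50 (SE 0.09, adjusted p = 0.000179). CCND3, CDK4, CCND2 and CDK2 differed by -0.60, -0.33, -0.31 and -0.29. CDK6 was not called (-0.13, 95% interval -0.28 to 0.03) and was called at -0.23 without MS177 replicate 2 (adjusted p = 0.00372). These comparisons and that with DMSO share the same MS177 libraries, so they are not separate evidence.

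MS177N1 and C24 did not differ in any of the 9 genes by the test, where limma called 0.0141% of all genes. Only CCND2 had an unadjusted p under 0.05, at -0.09 (95% interval -0.19 to -0.00, limma adjusted p = 0.997). Over all 14164 genes tested, 634 had such a p in this comparison. The widest intervals of the difference were those of the scarce genes CCNE2 (-0.54 to 0.47) and CCND1 (-0.47 to 0.25). Narrower ones were those of CDK2 (-0.12 to 0.14) and CDK4 (-0.18 to 0.04).

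The wider pathway was read from lists chosen for their known roles, with earlier results of these data known. The counts that follow stand beside the 29.0% of all genes tested that were called lower and the 28.9% called higher in MS177 against DMSO. Of 12 RB-related pocket proteins, E2F factors and DP partners, all tested, 7 fell and 3 rose with MS177 against DMSO (median log2 fold change -0.35), and the count that rose is near the 28.9% of all genes. E2F1, the activator best known for driving entry into S phase, fell by 0.94 (SE 0.07), and TFDP1, a DNA-binding partner of E2Fs, fell by 0.91 (SE 0.05). E2F7, a repressor of the family, rose by 1.36 (SE 0.07). E2F5 rose by 0.65 (SE 0.23, limma adjusted p = 0.0251), a call lost without MS177 replicate 1 (adjusted p = 0.105) or DMSO replicate 2 (0.138).

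Of 21 genes of S-phase entry known as E2F targets, 19 fell and 0 rose (median -0.57). UHRF1, a reader of hemimethylated DNA, fell by 1.51 (SE 0.06) and UNG, a uracil-DNA glycosylase, by 1.26 (SE 0.06). The 2 not called were the licensing factor CDT1 (-0.06, SE 0.06) and the thymidine kinase TK1 (0.00, SE 0.05), which were named after their values were seen. Of 7 other cell-cycle cyclins and kinases that were tested of 8 listed, 6 fell and 1 rose (median -0.46). CCNF, a cyclin that acts in a ubiquitin ligase, fell by 0.74 (SE 0.05), and CCNC, the cyclin of the Mediator kinase module, rose by 0.49 (SE 0.06). CDK3 had 0 reads in both MS177 libraries and 3.30 and 13.5 normalized reads with DMSO, and no fold is given. Its call as lower (limma adjusted p = 0.0300) was lost under 7 of 17 alternative settings, with adjusted p between 0.0134 and 0.230 over all of them.

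Of 7 CDK inhibitor genes, 4 were tested and 1 was called. CDKN1A, which encodes p21, rose by 2.23 (SE 0.07) to 5162 ± 402 normalized reads with MS177, against 1097 ± 69.2 with DMSO (SD, n = 2). CDKN1B, CDKN1C and CDKN2D had log2 fold changes of 0.03, -0.02 and 0.05 and were not called.

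Of 11 genes of CDK activation and assembly, 5 fell and 3 rose (median -0.12; 2 fell when libraries were scaled by total reads), and the count that rose is near the 28.9% of all genes. CDC25A, the phosphatase that activates CDK2, fell by 0.87 (SE 0.06), and CKS1B, a CDK-binding subunit, by 0.31 (SE 0.07). CDK7, the kinase that activates the CDKs, rose by 0.49 (SE 0.11), and CDC25C, a phosphatase that acts at mitosis, by 0.39 (SE 0.13). The CDC25C call was lost without MS177 replicate 1 (adjusted p = 0.127) or DMSO replicate 2 (0.0779).

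Of 14 genes of cyclin turnover, 7 fell and 2 rose (median -0.15; 4 fell and 3 rose when libraries were scaled by total reads), and the calls in both directions together are near the 57.9% of all genes. RBX1, the RING subunit of cullin ligases, fell by 0.77 (SE 0.10) and SKP2, a receptor for p27, by 0.69 (SE 0.08). AMBRA1, a receptor for D cyclins, rose by 0.25 (SE 0.08), but without DMSO replicate 1 the value was 0.13 and was not called (adjusted p = 0.218). GSK3B, a kinase that marks cyclin D1 for export and breakdown, rose by 0.16 (SE 0.06) and lost its call without MS177 replicate 2 (adjusted p = 0.0558) or DMSO replicate 2 (0.0863).

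Of the 5 core genes of the DREAM complex, which represses cell-cycle genes, 2 fell and 2 rose (median -0.08; 1 fell when libraries were scaled by total reads). RBBP4, a histone chaperone, fell by 0.50 (SE 0.05) and LIN9 by 0.28 (SE 0.09; adjusted p = 0.0638 when scaled by total reads). LIN37 rose by 0.49 (SE 0.15) and lost its call without MS177 replicate 1 or DMSO replicate 2 (adjusted p = 0.147 and 0.0838). LIN52 rose by 0.35 (SE 0.11) and lost its call without MS177 replicate 2 or DMSO replicate 1 (adjusted p = 0.0502 and 0.104). The limma adjusted p of the genes named from these lists as fallen or risen, CDK3 aside, lay between 9.84e-13 and 0.0251. By limma, none of the 74 tested genes of the 7 lists was called with MS177N1 or C24 against DMSO, and 5 with MS177N1 and 3 with C24 had an unadjusted p under 0.05. Over all 14164 genes tested, 718 with MS177N1 and 762 with C24 had such a p, so the list counts are near the share over all genes.

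**Figure D4:**
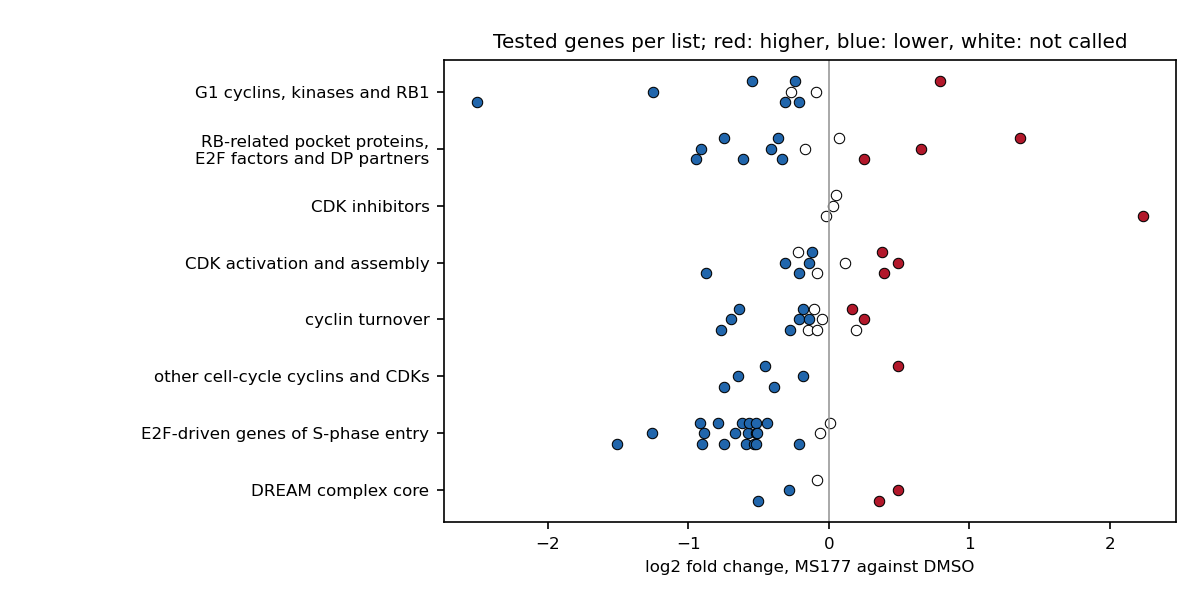
limma log2 fold change in MS177 against DMSO (horizontal axis) of each tested gene (points) of the 9 genes described here, in the top row, and of 7 lists of the pathway, where blue is called lower, red called higher and white not called (CDK3 is left out, as its MS177 libraries have 0 reads). In the row of E2F-driven genes of S-phase entry 19 of 21 points are blue, and the farthest point to the right is CDKN1A at 2.23.

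For each of the 9 genes, the most similar profile over the 8 libraries was sought among 9074 other genes with a mean of at least 200 normalized reads. Likeness was the root mean square difference of log2 levels, each centred on its own mean. CCND1 lay closest to DUSP7, a MAP kinase phosphatase gene, at 0.16, and the 2 genes had mean differences of -2.50 and -2.45 between MS177 and DMSO. CCNE1 lay closest to MRPS26, a mitochondrial ribosomal protein gene, at 0.06, and RB1 to AHNAK, a giant scaffold protein gene, at 0.06. CDK2 was closest to PSMD13, a proteasome subunit gene (0.01), CDK4 to DNAJB11, an endoplasmic reticulum chaperone gene (0.02), and CDK6 to BDP1, a factor of RNA polymerase III (0.02). CCND2 was closest to FIGNL1, a DNA repair gene, and CCND3 to HAUS8, a spindle gene, both at 0.03. CCNE2, with its wide spread, was closest to RBM18 at 0.13. Likeness over 8 libraries in 4 groups is a description only.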

How the data were processed

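Libraries were prepared with the NEBNext Ultra II RNA kit, per the labels' protocols. STAR 2.4.2, Salmon 0.1.19, DESeq2 1.38.2 and the genome build hg19 are named in the submitters' processing notes, without the role of each. Values deposited by the authors are log2 values, called normalized per the file headers. Judged from the values, the scale is variance-stabilized, with a shared minimum for 0 reads. Inverting it gave whole reads for 130360 of 130360 values (tolerance 0.01), and these were divided by 1 size factor per library.

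As planned for deposited log2 values that invert to whole reads, limma 3.58.1 (R 4.3.3) was run on log2 of normalized reads plus 1, which understates changes of scarce genes. No count test was run on the recovered reads. All 4 groups entered 1 fit, with trended and robust moderation (statmod 1.5.0), so 1 SE per gene served all comparisons. The replicates differed more with MS177 and DMSO (chi-square of reads per degree of freedom 8.11 and 6.08) than with MS177N1 and C24 (2.52 and 3.07). The shared SE may therefore be too small for MS177 against DMSO. Tested genes had 10 or more reads, scaled to the median library, in 2 libraries and 15 in total. Calls have a Benjamini-Hochberg adjusted p under 0.05. The fit was also run on simulated data with few changed genes and the same spread in all groups. These data differ in both, so that run does not show how the fit performs here. The 9 genes, the lists, markers and motifs were chosen with earlier results of these data known. Named from each list are the called genes of largest rise and fall with MS177 against DMSO, up to 2 each way. Beside the 9 genes themselves, the single gene of most similar profile is named for each.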

Additional observations from a re-analysis of the deposited data

How the results depend on the processing

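Alternatives were scaling by total reads or TMM factors, pseudocounts of 0.5 and 8, no filter on low reads, the deposited log2 values, fits of only the 2 groups compared, moderation without trend or robust options, adjustment over all 6 comparisons, a replicate block and each library left out. Under all of them 7 or 8 of the 9 genes were called in each MS177 comparison, and 0 with MS177N1 against DMSO or C24. With C24 against DMSO the count was 1 (RB1) with adjustment over all 6 comparisons and 0 otherwise. That adjustment moved the calls over all genes in this comparison from 13 to 211. Scaling by total reads moved the median log2 change of all genes in MS177 against DMSO to 0.0877 and the share of calls that were higher to 58.0%, in place of 49.9%. Among the genes named from the lists, CDK3, CKS1B, E2F5, AMBRA1 and GSK3B also lost their calls without trend or robust options. In the fit of 2 groups, CDK3, AMBRA1 and GSK3B lost theirs.

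Same-numbered libraries had correlations of their deviations between -0.06 and 0.06 over all genes tested. The labels do not say whether they share a batch, and a batch that touches only some genes could leave such correlations near 0. With the replicate block, 7, 0, 0, 8, 7 and 0 of the 9 genes were called in the 6 comparisons, as without it. Over all genes the block gave 8299 calls for MS177 against DMSO (8207 without it), 11 for MS177N1 against DMSO (5 without) and 20 for C24 against DMSO (13 without).

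Directions turned only for values not called in either fit. Scaling by total reads gave CDK2 0.00366 in MS177N1 against DMSO, and gave CCNE2 0.070 in MS177 against MS177N1 and 0.044 in MS177 against C24. The deposited log2 values gave CCNE2 0.00446 in MS177 against MS177N1. Leaving out 1 library each gave the ranges that follow. For MS177 against DMSO, CCNE2 ran from -0.59 to 0.060 and CDK6 from -0.19 to 0.015. For MS177N1 against DMSO, CCND2 ran from -0.027 to 0.028, CCND3 from -0.077 to 0.015, CCNE1 from -0.23 to 0.11, CDK2 from -0.026 to 0.014, CDK4 from -0.014 to 0.054 and CDK6 from -0.00978 to 0.18. For C24 against DMSO, CCND3 ran from -0.00261 to 0.12, CCNE1 from -0.18 to 0.17, CDK2 from -0.058 to 0.024 and CDK6 from -0.061 to 0.13. For CCNE2, MS177 against MS177N1 ran from -0.33 to 0.32, MS177 against C24 from -0.37 to 0.29 and MS177N1 against C24 from -0.14 to 0.060. For MS177N1 against C24, CCNE1 ran from -0.12 to 0.00695 and CDK2 from -0.031 to 0.052. The cause of these shifts was not tested. Depth limits CCND1 and CCNE2 most, with at most 98 reads per MS177 library.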
